A study of Mus musculus with 22 samples.

Results

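Mouse genes named Zfp with a number code for zinc finger proteins, and their transcription start sites (TSSs) were followed here in mouse embryonic stem cells (ESC) and in neural progenitor cells (NPC) made from them. The members are the windows of a deposited TSS table whose gene symbol is Zfp followed by digits only, with Zfp42 left out, and they number 343 of 24467 windows. Each window spans 5000 bp of mm10 centred on 1 annotated TSS per gene. The assay was CUT&RUN, in which an antibody brings a nuclease to its target in permeabilised cells and the freed DNA is sequenced. Antibodies were against SUZ12, JARID2 and MTF2, which are subunits of Polycomb repressive complex 2 (PRC2), and against the histone marks H3K27me3 and H3K4me3. ESC and NPC were each profiled in 2 libraries with every antibody, which the submitters call biological replicates, and in 1 library with control IgG, for 22 libraries in all. Whether they came from separate cultures is not stated further, so p-values measure the spread between these libraries. All cells were C57BL/6 with the genotype label "untagged, Tir1" and the treatment label "untreated", so ESC and NPC shared the Tir1 background. ESC grew in N2B27 medium with 100 U/mL LIF, 3 µM CHIR99021 and 1 µM PD0325901. NPC were harvested after 72 h in 10 ng/mL bFGF and a further 48 h in 500 nM SAG, an agonist of hedgehog signalling, and are a population differentiated in culture rather than cells taken from brain.

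Zinc finger proteins of the C2H2 kind bind DNA through repeated fingers, each held by a zinc ion. Many carry a KRAB domain, which recruits the co-repressor TRIM28 and with it silencing of transposable elements, and genes of this kind lie in tandem clusters that arose by duplication. Others without a KRAB domain are regulators of development. PRC2 deposits H3K27me3, a mark of repressed developmental genes, at CpG-rich promoters, whereas H3K4me3 marks the start sites of active or poised genes, and a promoter that carries both is called bivalent.

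The members lay on 20 chromosomes, with 87 on chromosome 7, 38 on chromosome 17 and 32 on chromosome 13. Of the 343 windows, 342 were found by transcript in the RefSeq table of GRCm38.p6, 341 of them under the same symbol. Windows of 48 members (14.0%) overlapped that of another gene, against 21.9% of all windows, so reads of neighbours could be counted for both. No read was counted at 4 members (Zfp965, Zfp966, Zfp967 and Zfp973, all on chromosome 2), and 8 members had at most 3 IgG counts in each library. The handling of reads that fit several near-identical copies is not given in the sources used here, and levels at such copies are uncertain.

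The total count over all windows ran from 298458 (IgG in ESC) to 8425292 (H3K4me3 in NPC). H3K4me3 libraries held at least 3264267 counts, where 3 counts equal at most 0.919 CPM (the count divided by the library's total over all windows, scaled to 1e+06). The libraries of the other antibodies were shallower, down to 339591 counts for JARID2, where 3 counts equal 8.83 CPM. These floors cover counting error only. H3K4me3 fell in NPC at 9 of 10 ESC marker windows and rose at 10 of 10 NPC marker windows, and it also rose at 6 of 8 neuron marker windows and fell at 3 of 5 glia and 5 of 6 mesoderm marker windows. The NPC H3K27me3 libraries differed from each other more than any other pair, with a median of 24.4 CPM over the members in replicate 1 and 13.4 CPM in replicate 2. A lower level in a population can mean fewer cells with the mark or less mark per cell, which these libraries cannot tell apart.

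The promoters of 6 members are printed because the results turn on them. Zfp503 and Zfp536 carried SUZ12 and MTF2 in ESC, Zfp697 and Zfp316 lost H3K27me3 and gained H3K4me3 in NPC, Zfp296 did the reverse, and Zfp936 lost H3K4me3. Each sequence is from RefSeq (GRCm38.p6), runs 5′ to 3′ on the gene's own strand from 250 bases before the annotated start to 50 bases after it, and has each CpG in capitals. The places are chr14:21989552-21989851 (minus strand) for Zfp503, chr7:37769703-37770002 (minus) for Zfp536, chr3:98382231-98382530 (plus) for Zfp697, chr5:143269973-143270272 (minus) for Zfp316, chr7:19577037-19577336 (plus) for Zfp296 and chr7:43177340-43177639 (plus) for Zfp936.
Zfp503: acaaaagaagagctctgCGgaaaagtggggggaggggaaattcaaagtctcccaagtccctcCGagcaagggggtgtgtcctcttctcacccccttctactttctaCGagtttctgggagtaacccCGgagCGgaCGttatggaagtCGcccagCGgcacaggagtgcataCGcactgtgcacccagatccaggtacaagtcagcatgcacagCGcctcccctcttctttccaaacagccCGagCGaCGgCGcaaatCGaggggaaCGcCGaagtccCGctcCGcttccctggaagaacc
Zfp536: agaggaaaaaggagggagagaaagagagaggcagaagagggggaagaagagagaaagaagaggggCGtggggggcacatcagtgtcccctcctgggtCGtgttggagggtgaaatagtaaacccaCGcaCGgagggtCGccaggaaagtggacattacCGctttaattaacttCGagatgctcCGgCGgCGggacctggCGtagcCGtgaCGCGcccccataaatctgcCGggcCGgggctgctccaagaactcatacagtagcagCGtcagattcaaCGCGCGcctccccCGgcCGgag
Zfp697: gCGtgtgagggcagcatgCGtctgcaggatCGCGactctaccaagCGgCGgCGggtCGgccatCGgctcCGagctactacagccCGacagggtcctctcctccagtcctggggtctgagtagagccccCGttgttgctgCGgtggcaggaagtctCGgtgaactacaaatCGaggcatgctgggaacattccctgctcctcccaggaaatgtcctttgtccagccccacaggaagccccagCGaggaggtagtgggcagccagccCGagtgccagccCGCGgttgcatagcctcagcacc
Zfp316: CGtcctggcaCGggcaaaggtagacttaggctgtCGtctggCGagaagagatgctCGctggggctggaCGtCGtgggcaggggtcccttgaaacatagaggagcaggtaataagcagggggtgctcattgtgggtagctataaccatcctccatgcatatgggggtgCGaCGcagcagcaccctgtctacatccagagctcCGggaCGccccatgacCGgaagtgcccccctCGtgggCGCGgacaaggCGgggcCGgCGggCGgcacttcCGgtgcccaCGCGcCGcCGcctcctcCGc
Zfp296: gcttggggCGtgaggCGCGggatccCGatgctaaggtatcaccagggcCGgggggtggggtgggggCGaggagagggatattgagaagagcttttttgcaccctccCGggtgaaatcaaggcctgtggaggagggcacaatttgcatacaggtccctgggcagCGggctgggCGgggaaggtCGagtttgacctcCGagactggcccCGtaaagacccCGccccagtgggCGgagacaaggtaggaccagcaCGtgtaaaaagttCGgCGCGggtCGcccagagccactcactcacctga
Zfp936: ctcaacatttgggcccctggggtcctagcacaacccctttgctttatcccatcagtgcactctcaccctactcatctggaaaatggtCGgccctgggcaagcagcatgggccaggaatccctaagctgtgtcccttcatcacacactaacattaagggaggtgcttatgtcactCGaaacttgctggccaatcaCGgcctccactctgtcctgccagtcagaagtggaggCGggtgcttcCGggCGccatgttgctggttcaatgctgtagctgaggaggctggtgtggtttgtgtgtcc
The number of CpGs in these 300 bases was 19 for Zfp503, 22 for Zfp536, 19 for Zfp697, 25 for Zfp316, 19 for Zfp296 and 6 for Zfp936. Zfp936 had the fewest of the 6.

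As a group the Zfp windows were rich in H3K4me3 and poor in H3K27me3. The members' median H3K4me3 level was 53.9 and 50.3 CPM in the ESC libraries and 56.7 and 58.2 CPM in the NPC libraries, whereas the median over all windows was 26.3 and 24.3 CPM in ESC and 23.9 and 23.1 CPM in NPC. For H3K27me3 the members' median was 9.32 and 13.9 CPM in ESC, below the 19.7 and 21.6 CPM of all windows. In NPC the members' H3K27me3 medians of 24.4 and 13.4 CPM lay near those of all windows, 26.6 and 14.7 CPM. SUZ12, JARID2, MTF2 and IgG levels of the members lay close to those of all windows in every library.

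**Figure D1:**
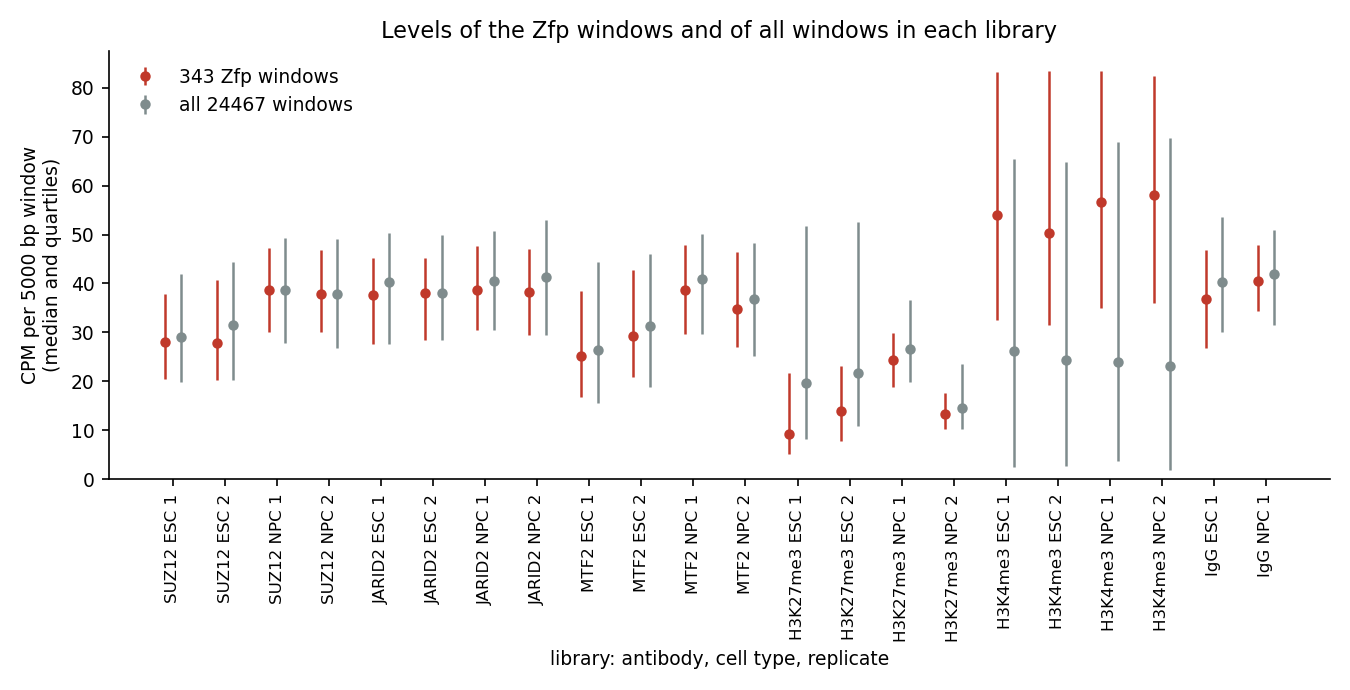
Median level in CPM per 5000 bp window, with bars from the lower to the upper quartile, for the 343 Zfp windows and all 24467 windows in each of the 22 libraries. H3K4me3 is the antibody with Zfp medians above those of all windows, at 50.3 to 58.2 CPM, and H3K27me3 in ESC has Zfp medians below them, at 9.32 and 13.9 CPM.

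Most Zfp start sites carried H3K4me3 in both cell types. A window was called above IgG when edgeR gave an adjusted p below 0.05 and a log2 fold of at least 1 in a fit of all 22 libraries, with the lone IgG library assumed to vary like the other groups. By that rule 207 of 336 members tested were above IgG for H3K4me3 in ESC, against 36% of all windows, and 237 in NPC, against 38.9% of all windows. The mark was above IgG at 182 members in both cell types, at 25 in ESC and not in NPC, at 55 in NPC and not in ESC, and at 74 in neither. The median log2 fold over IgG was 1.43 in ESC and 1.44 in NPC over the members, and 0.18 and 0.22 over all windows. The fit scales libraries by trimmed means (TMM), and with library totals instead 109 members were called in ESC and 92 in NPC.

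The mean H3K4me3 level of a member ran from 0 to 249.6 CPM in ESC, with quartiles at 32.4 and 83.7 CPM, and from 0 to 243.5 CPM in NPC. The highest level in ESC was at Zfp553, with 236 and 263 CPM, whose window overlapped that of Gm4532, 312 bp away. Zfp13 followed with 199 and 207 CPM, and Zfp64 with 201 and 197 CPM. In NPC the highest was Zfp462, a nuclear protein of stem cell chromatin, with 230 and 257 CPM after 140 and 150 CPM in ESC. Both of its NPC libraries lay above both ESC libraries, and the log2 change was 0.74 ± 0.08 (SE).

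H3K4me3 changed at many members, mostly by little. Of 332 members tested, 128 were higher in NPC, against 26.7% of all windows tested, and 87 were lower, against 29.2%, while 117 did not pass the test. The median size of a call was 0.51 (log2) for those higher and 0.56 for those lower. The ESC and NPC libraries did not overlap at 214 of the 215 called, which the call itself favours. A change of at least 2-fold was found at 15 members that rose and 23 that fell. Neither this count nor that of libraries without overlap was made over all windows. The median change was 0.09 over the members and -0.02 over all windows. With TMM factors from windows not above IgG, 77 members were higher and 22 lower, and the median of all windows moved to 0.27. With no filter on low counts 93 were higher and 94 lower, with a median of 0.01 over the members.

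Zfp936, on chromosome 7, showed the largest fall among the well-covered members. Its H3K4me3 level was 156 and 146 CPM in ESC and 6.43 and 7.48 CPM in NPC, a log2 change of -4.41 ± 0.12 (edgeR, adjusted p = 1.9e-277). Zfp296, a zinc finger factor of pluripotent cells, went from 115 and 98.6 CPM to 14.1 and 16.9 CPM, a change of -2.77 ± 0.11. Zfp819, a KRAB gene tied to the silencing of transposable elements, went from 104 and 100 CPM to 21.4 and 24.1 CPM, a change of -2.15 ± 0.10. At these 3 members the mark was above IgG in ESC and not in NPC, and the ESC and NPC libraries lay far apart.

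Zfp459, in the chromosome 13 cluster, fell from 90.3 and 82.0 CPM to 28.2 and 28.7 CPM (-1.62 ± 0.10). Zfp13 fell from 199 and 207 CPM to 61.0 and 69.2 CPM (-1.63 ± 0.09). Its window overlapped that of Zscan10, a gene of pluripotent cells whose start lies 1338 bp away and whose H3K4me3 change was -1.75, so the fall of Zfp13 cannot be told apart from that of its neighbour. Zfp217, part of co-repressor complexes, fell from 32.3 and 27.1 CPM to 5.82 and 4.51 CPM (-2.63 ± 0.21).

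A pair of low windows on chromosome 4, chosen after their values were seen, fell about as far as Zfp936. Zfp534 had 25.8 and 27.1 CPM in ESC and 1.84 and 1.07 CPM in NPC (-4.34 ± 0.30), at a window with 1 IgG count in ESC and 3 in NPC. Zfp600 had 22.5 and 21.3 CPM in ESC and 0.306 and 1.07 CPM in NPC. The first of those NPC values is 1 count, so no fold is given. Zfp345, on chromosome 2 and also chosen after its values were seen, had 52.2 and 48.6 CPM in ESC and 12.3 and 11.04 CPM in NPC (-2.17 ± 0.14).

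The largest rise in H3K4me3 was at Zfp608, a regulator known from thymocytes, on chromosome 18. Its level was 23.6 and 24.6 CPM in ESC and 186 and 213 CPM in NPC, a log2 change of 3.05 ± 0.10 (edgeR, adjusted p = 7.7e-194). Zfp536, a repressor of neuronal differentiation, rose from 41.0 and 40.6 CPM to 123 and 132 CPM (1.64 ± 0.09). Zfp316 rose from 28.0 and 27.1 CPM to 78.7 and 71.6 CPM (1.40 ± 0.10). Zfp503, a transcriptional repressor of the developing striatum and hindbrain, rose from 40.0 and 33.1 CPM to 91.6 and 98.9 CPM (1.35 ± 0.09). None of these 4 windows was above IgG for H3K4me3 in ESC, and all 4 were in NPC.

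Zfp40 rose from 31.8 and 27.9 CPM to 71.7 and 72.5 CPM (1.23 ± 0.10) and was above IgG in both. Members chosen after their values were seen add Zfp334, from 9.81 and 8.01 CPM to 41.4 and 46.1 CPM (2.26 ± 0.16). Zfp677 went from 6.17 and 7.73 CPM to 30.9 and 30.5 CPM (2.16 ± 0.19), and Zfp94 from 13.1 and 11.05 CPM to 49.9 and 43.3 CPM (1.86 ± 0.14). Of the 55 members above IgG in NPC and not in ESC, 44 were called higher, and of the 25 above IgG in ESC and not in NPC, 20 were called lower. Both sets were chosen by the same H3K4me3 counts, so these numbers are a description, and they were not made over all windows.

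KRAB genes known for silencing retroviruses or guarding imprints fell by different amounts or gave no call. Zfp57, which keeps genomic imprints methylated, had 131 and 122 CPM of H3K4me3 in ESC and 53.9 and 58.0 CPM in NPC (-1.18 ± 0.09). Zfp809, which binds retroviral DNA, had 159 and 171 CPM in ESC and 72.9 and 71.3 CPM in NPC (-1.21 ± 0.08). Zfp568, a repressor of a placental Igf2 transcript, had 167 and 165 CPM in ESC and 110 and 112 CPM in NPC (-0.61 ± 0.08). All 3 were lower in NPC and remained above IgG there. Zfp932, a repressor of endogenous retroviruses, had 88.9 and 87.0 CPM in ESC and 81.8 and 77.5 CPM in NPC, and its change of -0.18 ± 0.09 did not pass the test (edgeR, adjusted p = 0.068).

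Zfp genes with general roles also changed by different amounts, from 0.01 at Zfp207 to -0.83 at Zfp110. Zfp207, a spindle assembly factor, had 145 and 159 CPM in ESC and 146 and 160 CPM in NPC, a change of 0.01 ± 0.08 that did not pass the test. Zfp143, a factor of many promoters, changed by -0.25 ± 0.08, but the sign turned to 0.04 with TMM from background windows. Zfp148, whose window shares its place with 1700007L15Rik, changed by -0.29 ± 0.08, a call lost in that alternative. Zfp281, a factor of stem cells, changed by -0.35 ± 0.10, Zfp36, which destabilises mRNA, by -0.80 ± 0.09, and Zfp110, a partner of the neurotrophin receptor, by -0.83 ± 0.09. Zfp91, a ubiquitin ligase, changed by 0.22 ± 0.08, and that call was lost in 7 of 11 alternatives.

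PRC2 was found at few Zfp start sites. SUZ12 was above IgG in ESC at 8 of 336 members, against 5.67% of all windows, and MTF2 at 11, against 9.1%. Together they marked 12 members, 7 of them by both antibodies: Zfp277, Zfp503, Zfp516, Zfp521, Zfp536, Zfp703 and Zfp711. SUZ12 without MTF2 was at Zfp784, and MTF2 without SUZ12 at Zfp319, Zfp41, Zfp622 and Zfp697. H3K4me3 was also above IgG in ESC at 10 of the 12. In NPC neither was called at any window, member or not (0% for SUZ12 and 0% for MTF2), by edgeR. At an unadjusted p below 0.05, above or below IgG, there were 6 of the 336 members for SUZ12 and 11 for MTF2. Other settings did call windows in NPC, with 0 members among them: DESeq2 called 223 for SUZ12 and 307 for MTF2, and library totals 177 and 204. Without ESC replicate 1 the calls fell to 3 members for SUZ12 and 4 for MTF2.

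At the strongest of these windows SUZ12 was several fold lower in NPC. SUZ12 at Zfp503 was 574 and 555 CPM in ESC and 109 and 120 CPM in NPC, a log2 change of -2.55 ± 0.24 (edgeR, adjusted p = 5.7e-24), with IgG at 46.9 and 50.9 CPM. SUZ12 at Zfp536 was 428 and 352 CPM in ESC and 55.8 and 66.9 CPM in NPC (-2.93 ± 0.25). SUZ12 at Zfp703, the closest relative of Zfp503, was 367 and 374 CPM in ESC and 85.9 and 78.0 CPM in NPC (-2.42 ± 0.24). In all 3 both ESC libraries lay far above both NPC libraries and IgG.

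MTF2 was also high at these windows in ESC. It was 431 and 347 CPM in ESC and 45.5 and 81.2 CPM in NPC at Zfp536 (-2.88 ± 0.90, edgeR adjusted p = 0.021). At Zfp503 it was 504 and 411 CPM in ESC and 93.3 and 151 CPM in NPC, and the change of -2.17 ± 1.03 did not pass the test (edgeR, adjusted p = 0.15), nor did that of Zfp703, at -2.51 ± 0.93 (edgeR, adjusted p = 0.053). Zfp711, an X-linked gene of intellectual disability, had 55.3 and 54.3 CPM of MTF2 in ESC and 9.10 and 17.4 CPM in NPC (-2.28 ± 0.39). The NPC MTF2 libraries of Zfp503 and Zfp703 stood further apart than their SUZ12 libraries.

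Weaker PRC2 windows fell by less. Zfp277, whose window overlaps that of Dock4, had 79.3 and 87.0 CPM of SUZ12 in ESC and 34.3 and 46.8 CPM in NPC (-1.27 ± 0.27). Zfp516, a regulator of brown fat, had 115 and 87.0 CPM in ESC and 64.4 and 40.1 CPM in NPC (-1.23 ± 0.25). Zfp521, a regulator of neural and fat cell fate, had 96.8 and 72.2 CPM in ESC and 60.1 and 37.9 CPM in NPC (-1.07 ± 0.25). MTF2 changed at these 3 as well, by -1.33 ± 0.36, -1.56 ± 0.40 and -1.48 ± 0.35. At Zfp521 the SUZ12 call held in 8 of 11 alternatives and the MTF2 call in 9 of 12, and the MTF2 call at Zfp536 held in 8 of 12. Zfp964 fell in SUZ12 from 51.3 and 59.2 CPM to 30.1 and 24.5 CPM (-1.24 ± 0.32) without being called above IgG.

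Over all members, SUZ12 was lower in NPC at 21 of 314 tested, against 13.1% of all windows, and higher at 9, against 2.97%. MTF2 was lower at 12 of 310, against 8.89%, and higher at 8, against 3.28%. Of the 21 SUZ12 windows that fell, 8 had been above IgG in ESC and 7 also fell in MTF2, counts not made over all windows. The 9 that rose did so within the range of IgG, from a median log2 fold over IgG of -0.61 in ESC to 0.18 in NPC. Zfp180 rose from 25.7 and 24.1 CPM to 53.7 and 60.2 CPM (0.92 ± 0.32), and Zfp750, a gene of epidermal differentiation, from 37.3 and 27.8 CPM to 51.5 and 86.9 CPM (0.78 ± 0.28), and each of these calls held in 5 of 9 alternatives. Zfp652 rose in MTF2 from 18.0 and 29.2 CPM to 54.6 and 54.1 CPM (1.00 ± 0.35), still below IgG, and the call held in 5 of 10. The split depends on the scaling: with library totals SUZ12 was higher at 36 members and lower at 9, and MTF2 higher at 29 and lower at 9. With TMM from background windows MTF2 was higher at 5 and lower at 19. With any 1 library left out, SUZ12 was higher at 2 to 5 members, and MTF2 was lower at 2 without ESC replicate 1, at 19 without ESC replicate 2 and at 1 without NPC replicate 1. MTF2 was higher at 0 members without ESC replicate 1 or NPC replicate 1, and at 1 without NPC replicate 2. With the replicate number as a block MTF2 was higher at 3 and lower at 4.

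JARID2 gave no call over IgG at any window in either cell type (0% of all windows in ESC and 0% in NPC, edgeR). At an unadjusted p below 0.05, above or below IgG, there were 12 of 336 members in ESC and 10 in NPC. DESeq2 called 42 windows above IgG in ESC and 0 in NPC, with 0 members among them. Between the cell types 1 of 316 members was higher in NPC, against 0.0792% of all windows, and 0 were lower, against 0.75%. An unadjusted p below 0.05, in either direction, was found at 20 of the 316 members. The member called was Zfp827, with 20.1 and 21.4 CPM in ESC and 56.8 and 58.9 CPM in NPC (1.43), and the call was lost when any of the 4 libraries was left out and with DESeq2. At Zfp503 JARID2 was 90.6 and 76.1 CPM in ESC and 48.7 and 70.7 CPM in NPC, where the change of -0.55 ± 0.28 did not pass the test.

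H3K27me3 was above IgG in ESC at 35 of 336 members, against 22.5% of all windows, and in NPC at 14, against 15.1%. The median log2 fold over IgG was -1.01 over the members in ESC and -0.11 over all windows, and -0.25 and -0.09 in NPC. At 8 members the mark was above IgG in both cell types: Zfp105, Zfp185, Zfp503, Zfp536, Zfp579, Zfp648, Zfp711 and Zfp9. SUZ12 or MTF2 was called in ESC at 5 of the 35. Without NPC replicate 2 the NPC count was 8, and without ESC replicate 1 the ESC count was 23.

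Zfp287 lost H3K27me3 most. Its level was 142 and 120 CPM in ESC and 22.2 and 14.0 CPM in NPC, a log2 change of -2.71 ± 0.45 (edgeR, adjusted p = 8.5e-08). Its SUZ12 level in ESC was 32.6 and 37.0 CPM, with IgG at 43.6 CPM, and was not called above IgG. Zfp697 went from 171 and 178 CPM to 35.5 and 20.4 CPM (-2.50 ± 0.54), and here MTF2 fell too, from 88.9 and 79.4 CPM to 45.5 and 30.9 CPM (-1.44 ± 0.35), a call that held in 8 of 12 alternatives. Zfp608 went from 104 and 113 CPM to 22.2 and 21.0 CPM (-2.09 ± 0.40). Zfp316 went from 113 and 98.8 CPM to 27.7 and 23.6 CPM (-1.84 ± 0.40), and Zfp641 from 165 and 142 CPM to 27.7 and 36.9 CPM (-1.97 ± 0.51). In NPC none of the 5 was called above IgG. Before TMM scaling all 5 lay below their IgG level in CPM. So did the median of all windows, at 26.6 and 14.7 CPM against 41.9 CPM for IgG.

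Of 290 members tested, 37 were lower in H3K27me3 in NPC, against 23.5% of all windows, and 25 of the 37 had been above IgG in ESC. Genes with a known role among them were Zfp423, a regulator of fat and cerebellar cells, from 69.4 and 63.3 CPM to 32.1 and 15.9 CPM (-1.36 ± 0.32), and Zfp488, a gene of oligodendrocytes, from 132 and 114 CPM to 34.4 and 40.8 CPM (-1.46 ± 0.45). H3K4me3 was low at both: Zfp423 had 4.27 and 3.31 CPM in ESC and 3.68 and 1.78 CPM in NPC, and Zfp488 had 9.81 and 8.28 CPM in ESC and 6.74 and 7.003 CPM in NPC, with neither change past the test. Among the 36 of these 37 that were tested for H3K4me3, 21 rose and 2 fell. Without ESC replicate 1 the count of 37 became 13. The 25 above IgG in ESC rest on the same ESC libraries as the test and were not counted over all windows.

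H3K27me3 was higher in NPC at 95 members, against 22.9% of all windows, but at most of them the level stayed near or below IgG. Of the 95, 94 had a log2 fold over IgG below 0 in ESC and 64 still did in NPC, with medians of -1.79 and -0.15. The median over these members of the mean count per library was 6 in ESC and 23.5 in NPC, and the part of this low background in the calls was not tested. H3K4me3 alone was above IgG in ESC at 73 of the 95, and at 193 of all 343 members. Only 3 of the 95 were above IgG for H3K27me3 in NPC, namely Zfp296, Zfp664 and Zfp580. These counts among the 95 were not made over all windows. Library totals gave 12 higher and 32 lower in place of 95 and 37, and TMM from background windows gave 69 and 43. The count of 95 became 11 with a minimum count of 30 and 3 with DESeq2. Leaving out 1 library gave 23 for ESC replicate 1, 52 for NPC replicate 1 and 55 for NPC replicate 2. The members' median change was 0.66 and that of all windows 0.12.

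Zfp296 gained most. Its H3K27me3 level was 6.21 and 13.9 CPM in ESC and 178 and 197 CPM in NPC, a log2 change of 4.52 ± 0.69 (edgeR, adjusted p = 6.9e-09), with IgG at 46.9 and 37.4 CPM. MTF2 rose there from 21.6 and 29.2 CPM to 70.6 and 61.9 CPM (1.13 ± 0.33, a call that held in 7 of 10 alternatives), while SUZ12 went from 31.5 and 12.96 CPM to 51.5 and 51.3 CPM without passing the test (edgeR, adjusted p = 0.069). This is the start site that lost H3K4me3 above, and its window overlaps that of Gemin7, 3943 bp away, where H3K27me3 changed by 2.37. Zfp664, which shares its start region with Ccdc92, rose from 12.4 and 18.5 CPM to 58.7 and 68.8 CPM (2.33 ± 0.36) and kept H3K4me3 above IgG. Zfp580 rose from 39.4 and 54.0 CPM to 132 and 155 CPM (1.89 ± 0.56), again with H3K4me3 above IgG in both cell types. Zfp36 rose from 20.7 and 20.1 CPM to 51.0 and 34.4 CPM (1.21 ± 0.32) and Zfp652 from 12.4 and 16.99 CPM to 46.6 and 17.2 CPM (1.198 ± 0.36), neither of them above IgG, and these calls held in 8 of 12 and 7 of 10 alternatives.

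**Figure D2:**
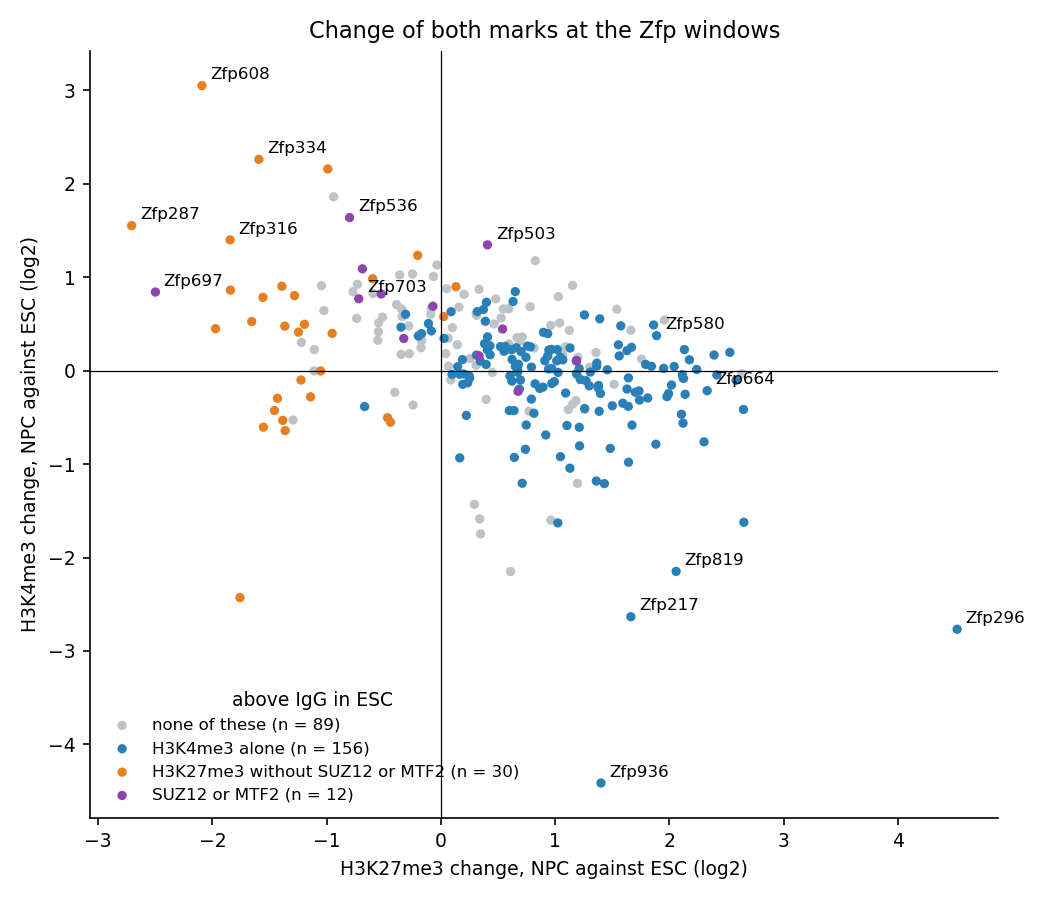
Log2 change from ESC to NPC in H3K27me3 (horizontal) and H3K4me3 (vertical) at the Zfp windows tested for both, 1 point per window, coloured by what was above IgG in ESC. Zfp608, Zfp287, Zfp334 and Zfp316 lie at upper left, with H3K27me3 down and H3K4me3 up, and Zfp296 lies alone at lower right, at 4.52 and -2.77.

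Calls in both marks were counted over 287 members tested for both. H3K27me3 fell and H3K4me3 rose at 21 members, against 5.06% of all windows tested for both. H3K27me3 rose and H3K4me3 fell at 38, against 12.1%, both rose at 18, against 4.33%, and both fell at 2, against 3.49%. The 38 and 18 rest on the 95 H3K27me3 risers, a count that is 12 with library totals and 3 with DESeq2. The pair that lost both marks was Zfp764 and Zfp831, named after their values were seen. Both marks were above IgG at 7 members in ESC, against 2.29% of all windows, and at 7 in NPC, against 4.05%. In ESC these were Zfp248, Zfp40, Zfp661, Zfp691, Zfp697, Zfp703 and Zfp711, and in NPC they were Zfp503, Zfp536, Zfp579, Zfp580, Zfp664, Zfp711 and Zfp821. Zfp711 was the member in both lists.

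**Figure D3:**
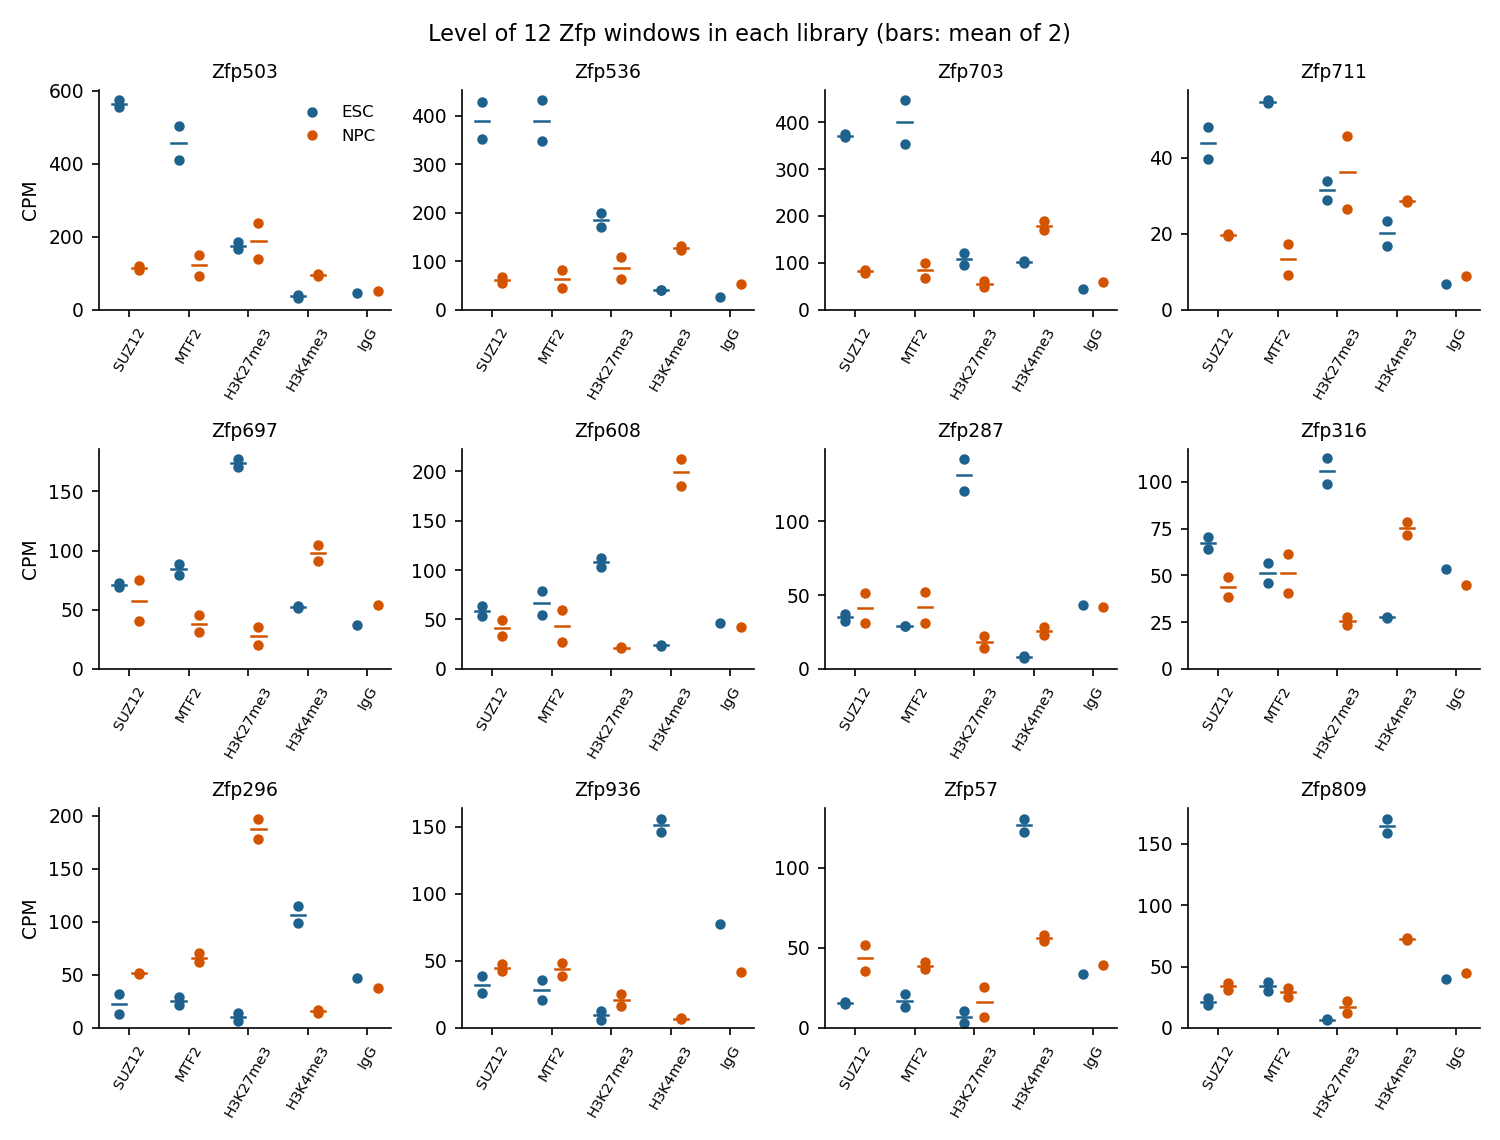
CPM in each SUZ12, MTF2, H3K27me3, H3K4me3 and IgG library at 12 Zfp windows, with ESC in blue, NPC in orange and short lines for the mean of 2 libraries. SUZ12 and MTF2 in ESC stand above all other points at Zfp503, Zfp536 and Zfp703, H3K27me3 in ESC is highest at Zfp697, Zfp287 and Zfp316, and at Zfp296 the highest points are H3K27me3 in NPC.

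At the main PRC2 windows H3K27me3 gave no called change. At Zfp503 H3K27me3 was 167 and 185 CPM in ESC and 139 and 238 CPM in NPC, a change of 0.41 ± 0.75. At Zfp536 it was 199 and 171 CPM in ESC and 63.2 and 109 CPM in NPC (-0.80 ± 0.63), and at Zfp711 29.0 and 34.0 CPM in ESC and 26.6 and 45.9 CPM in NPC (0.54 ± 0.30). None of these changes passed the test, and the spread between the NPC libraries was wide. H3K27me3 at Zfp703 gave no call either (edgeR, adjusted p = 0.18), with changes from -1.45 to -0.09 over 12 alternatives. At Zfp503, Zfp536 and Zfp703 the lack of a call held in 10 of 12 alternatives each. The difference between the H3K27me3 change and the SUZ12 change was then tested itself, as an interaction over 8 libraries.

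By that test the H3K27me3 change was the higher at 56 of 329 members, against 16.7% of all windows, and the lower at 19, against 14.2%. The difference was 2.96 at Zfp503, 2.13 at Zfp536 and 1.91 at Zfp711, where SUZ12 fell and H3K27me3 did not pass its test. At Zfp703, the third of the strongest SUZ12 windows, it was 1.70 and did not pass (edgeR, adjusted p = 0.076), and at Zfp784, where SUZ12 went from 58.3 and 72.2 CPM to 36.5 and 51.3 CPM, it was 1.45 and passed. Zfp697, with MTF2 in ESC, went the other way at -1.98. The H3K27me3 change exceeded that of SUZ12 by 3.64 at Zfp296 and 3.02 at Zfp664, where H3K27me3 rose. The call at Zfp536 was lost in 7 of 12 alternatives. Library totals gave 12 members higher and 28 lower, and the 56 became 22 without ESC replicate 1 of H3K27me3 and 27, 36 and 35 without ESC replicate 1, NPC replicate 1 and NPC replicate 2 of SUZ12. Of the 56, 41 had H3K27me3 called higher and 8 had SUZ12 called lower, counts not made over all windows.

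Members with the lower H3K27me3 change included start sites that had the mark in ESC without called PRC2. The difference was -2.74 at Zfp287, -2.61 at Zfp92, -2.20 at Zfp366, which is known from dendritic cells, -2.02 at Zfp474, -1.74 at Zfp248 and -1.74 at Zfp358. At Zfp92, on the X chromosome, H3K27me3 went from 114 and 67.9 CPM to 22.2 and 26.8 CPM while SUZ12 was 12.8 and 9.25 CPM in ESC and 27.9 and 24.5 CPM in NPC. At Zfp366 H3K27me3 went from 73.5 and 78.8 CPM to 25.5 and 22.9 CPM while SUZ12 was 19.8 and 29.6 CPM in ESC and 47.2 and 49.0 CPM in NPC. IgG was 20.1 CPM in ESC and 19.5 CPM in NPC at Zfp92, and 43.6 and 59.9 CPM at Zfp366. SUZ12 was not called above IgG at either window. The median SUZ12 level of all windows was 29.1 and 31.5 CPM in ESC and 38.6 and 37.9 CPM in NPC. The part of this background in the differences was not tested. H3K27me3 itself was called lower at 18 of the 19, a count not made over all windows. The 19 became 8 without NPC replicate 1, 10 without ESC replicate 1 and 11 without ESC replicate 2 of SUZ12, and 11 without ESC replicate 1 of H3K27me3.

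Sorted by what was above IgG in ESC, the members formed 4 groups: 12 with SUZ12 or MTF2, 30 with H3K27me3 and neither of these, 193 with H3K4me3 alone and the remainder with none. The groups were made from ESC levels, so changes in the same antibody are given as a description. In the first group the median SUZ12 level was 84.0 CPM in ESC and 54.4 CPM in NPC, and in the second 35.4 and 38.8 CPM. Median H3K27me3 was 39.1 CPM in ESC and 27.3 CPM in NPC in the first group, 82.1 and 24.9 CPM in the second, and 8.52 and 18.1 CPM in the third. H3K4me3 rose at 9 of 12 members of the first group and fell at 1, and in the second it rose at 16 of 30 and fell at 3. In the group with H3K4me3 alone it rose at 47 of 193 and fell at 70. In the group with none called it rose at 56 of 97 tested and fell at 13. These groups were split by H3K4me3 in the same ESC libraries. That choice favours falls where the mark was above IgG in ESC and rises where it was not. Rises were thus also called at members without called PRC2 or H3K27me3, but the shares cannot be compared between these groups. Over all windows 26.7% rose and 29.2% fell.

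A list of 21 developmental Zfp genes held most of the PRC2 windows. The list was drawn up with results of these data already known, so its counts are a description. It was meant to leave out KRAB genes, but no protein sequence was checked for that. SUZ12 was above IgG in ESC at 6 of the 21 and at 2 of the other 315 tested, MTF2 at 7 and 4, and H3K27me3 at 10 and 25. The shares over all windows were 5.67%, 9.1% and 22.5%. H3K4me3 was higher in NPC at 14 of the 21 and lower at 3, with a median change of 0.37, and at 114 and 84 of the other 311 tested, with a median of 0.07. The 3 that fell were Zfp532 (-1.20), Zfp704 (-0.79) and Zfp592 (-0.24). Others of the list rose modestly: Zfp507, whose window overlaps a neighbour, by 0.37 ± 0.10, Zfp800 by 0.28 ± 0.10 and Zfp609, a partner of the cohesin loader, by 0.26 ± 0.09. Zfp618 rose by 0.90 ± 0.18 from 11.9 and 11.3 CPM to 21.4 and 22.4 CPM, and Zfp365 and Zfp687 did not pass the test.

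Nearly as many members lay in genomic clusters as outside them. With neighbouring TSSs at most 500000 bp apart and at least 4 members, there were 20 clusters with 165 members, and with a limit of 200000 bp there were 17 with 130. The largest were those of chromosome 17 (20 members between 21008940 and 23599487), chromosome 13 (19 members between 67061170 and 67813815) and chromosome 7 (15 members between 29768551 and 30169727). H3K27me3 was above IgG in ESC at 4 of 163 clustered members tested (2.45%) and at 31 of 173 outside clusters (17.9%), and SUZ12 or MTF2 at 11 of the 12 members outside. H3K4me3 was above IgG in ESC at 105 of 163 in clusters (64.4%) and at 102 of 173 outside (59.0%).

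Neighbours in a cluster did not change as a block. In the chromosome 17 cluster H3K4me3 was higher in NPC at 10 members, among them Zfp160, Zfp54, Zfp51 and Zfp40, and lower at 6, among them Zfp52, Zfp229 and Zfp13. The chromosome 13 cluster had 6 higher, such as Zfp455, Zfp58 and Zfp87, and 4 lower, Zfp456, Zfp459, Zfp65 and Zfp493. Zfp936 and Zfp819 fell in a chromosome 7 cluster of 5 members in which the other three, Zfp715, Zfp658 and Zfp719, rose. Clusters with calls in 1 direction were small: 4 of 5 members rose in a chromosome 9 cluster (Zfp560, Zfp26, Zfp426 and Zfp266) and 3 of 4 fell in a chromosome 8 cluster (Zfp709, Zfp882 and Zfp961). Over all clusters the median H3K4me3 change was 0.10, against 0.07 for members outside, with 44 of 162 tested lower in clusters and 43 of 170 outside.

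**Figure D4:**
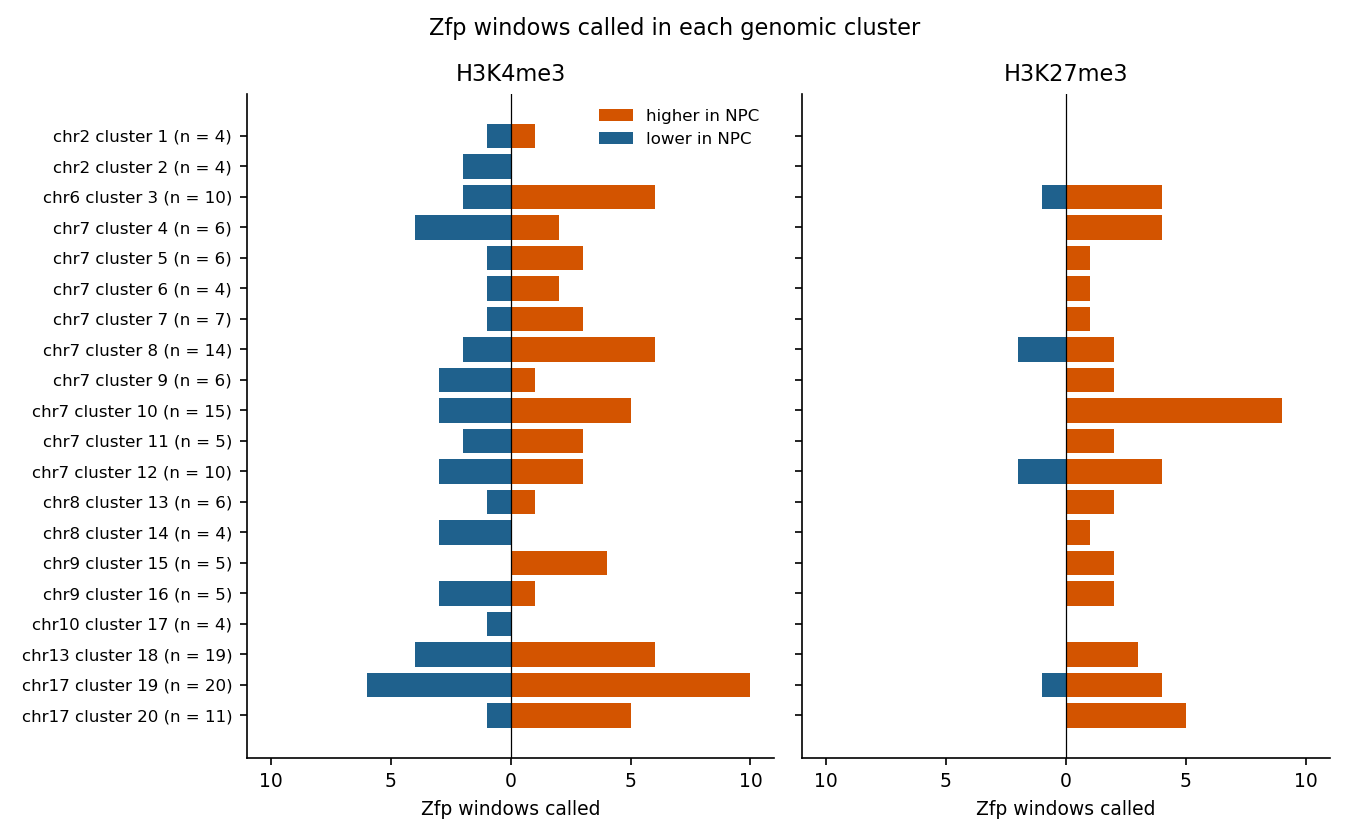
Number of Zfp windows called higher (right, orange) or lower (left, blue) in NPC for H3K4me3 and H3K27me3 in each of the 20 genomic clusters, with the number of members in brackets. H3K4me3 calls run in both directions in most clusters, as in the chromosome 17 cluster with 10 higher and 6 lower, and H3K27me3 calls are mostly higher.

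Promoter sequences of 300 bases were matched to 260 members, and 83 were not matched. The dinucleotide CG was counted on 1 strand, which gives the same number for both. The median was 14.5 CpGs for the members and 13 for all 16237 promoters matched, and 68.8% of the members and 56.4% of all promoters held at least 10. By group the median was 20.5 for the 6 matched members with SUZ12 or MTF2 in ESC, 16 for 18 with H3K27me3 and neither, 15 for 153 with H3K4me3 alone and 11 for 83 with none. Members whose H3K4me3 rose had a median of 16.5 CpGs (88 promoters) and those whose H3K4me3 fell 14 (64 promoters). At most 5 CpGs were found at 32 members.

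**Figure D5:**
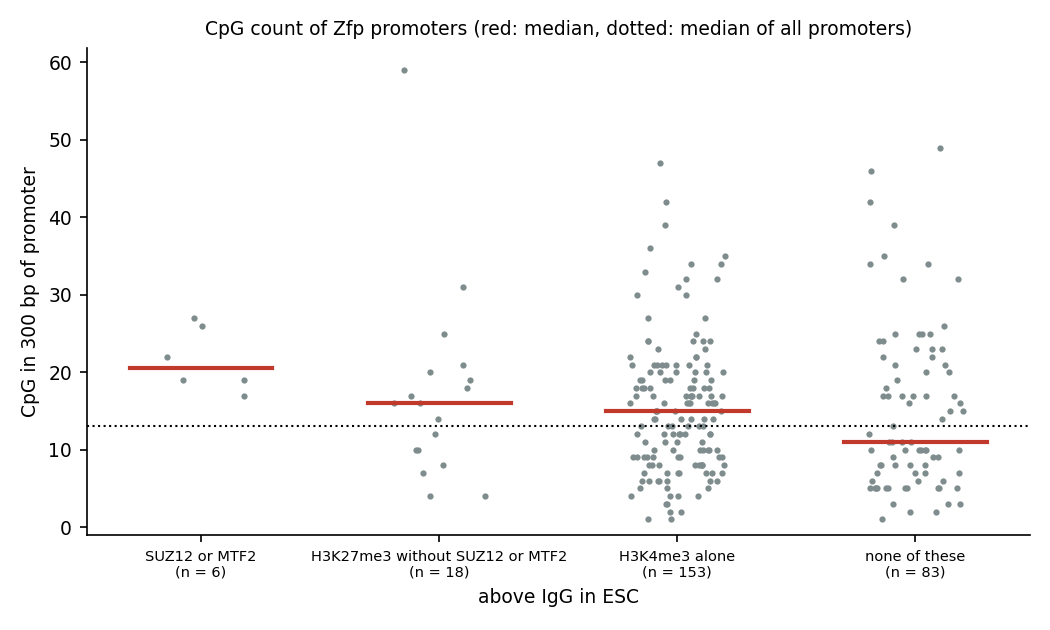
Number of CpGs in the 300 bases of each matched Zfp promoter (points), grouped by what was above IgG in ESC, with the median of each group in red and that of all promoters, 13, as a dotted line. The 6 promoters with SUZ12 or MTF2 all lie above the dotted line, with a median of 20.5, while the other groups span it.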

How the data were processed

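The authors deposited raw counts of CUT&RUN reads per 5000 bp TSS window of mm10. The submitters' processing notes name Bowtie2 2.3.4.3 and Picard 2.19, without their roles. Not given in the sources used here are the counting program, filters, strand use and the treatment of duplicates or of reads fitting several places. Drosophila spike-in DNA was added when fragments were released, and its counts were not used. Levels are CPM of the window total. The members and gene lists were chosen with earlier results of these data known.

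Each antibody's 4 libraries were compared with edgeR 4.0.16 (R 4.3.3; quasi-likelihood test, TMM, filterByExpr with a minimum count of 10, Benjamini-Hochberg adjusted p below 0.05 over all windows). The SE is the size of the log2 change over the root of F, and a log2 change can differ from a ratio of CPM. Enrichment over IgG came from 1 fit of 22 libraries. Scripts were tested on simulated counts with the same spread in every library. No recovery threshold was set there for the comparison with IgG. The rule for named genes took genes of known role, the 5 largest called changes per antibody, direction and interaction at well-covered windows with libraries that do not overlap, and called members of the clusters described. Alternatives were DESeq2 1.42.0, other scalings, filters, controls and thresholds, a replicate block, windows without overlap and each library left out. Protein classes were not analysed here.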

Additional observations from a re-analysis of the deposited data

How the results depend on the processing

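Members above IgG numbered 4 (SUZ12, ESC), 5 (MTF2, ESC), 11 and 4 (H3K27me3, ESC and NPC) and 99 and 82 (H3K4me3) at a log2 fold of at least 2, and 5, 7, 17, 4, 109 and 92 in the same order with library totals. With both IgG libraries together SUZ12 gave 14 and MTF2 19. With 1 antibody library left out SUZ12 gave 3 to 7, MTF2 4 to 13, H3K27me3 23 to 37 in ESC and 8 to 19 in NPC. For changes between cell types, DESeq2 gave 0 higher and 7 lower for SUZ12, 0 higher for JARID2 and MTF2, 3 higher and 23 lower for H3K27me3, 74 higher and 56 lower for H3K4me3, and 15 higher and 8 lower for the interaction. Library totals gave 36 higher and 9 lower for SUZ12, 29 higher for MTF2, 12 higher for H3K27me3 and 12 higher for the interaction, and moved the median of all windows to 0.32 for SUZ12, 0.35 for MTF2 and -0.05 for H3K27me3. TMM from background windows gave 5 higher and 19 lower for MTF2, and 77 higher and 22 lower for H3K4me3. A minimum count of 30 gave 3 lower for SUZ12, 0 higher for JARID2, 3 higher and 3 lower for MTF2, and 11 higher and 17 lower for H3K27me3. The replicate block gave 0 higher for JARID2, and 3 higher and 4 lower for MTF2, where crossed numbers (added after seeing the data) gave 22 lower and windows without overlap 5 higher. Same-numbered libraries had deviations that correlated at -0.21 (H3K27me3) to 0.01 (JARID2), with -0.18 for MTF2 and -0.14 for H3K4me3. A clear positive link between same numbers was not seen, and the source of the negative values was not tested. Crossed numbers also gave 109 higher for H3K27me3 and 127 higher for H3K4me3. With 1 library left out the range was 2 to 5 higher and 14 to 15 lower for SUZ12, 0 to 0 higher for JARID2, 0 to 8 higher and 1 to 19 lower for MTF2, 23 to 69 higher and 13 to 36 lower for H3K27me3, 86 to 143 higher for H3K4me3, and 22 to 54 higher and 8 to 27 lower for the interaction. The cause of these shifts was not tested. The spread between the NPC JARID2 libraries was that of sampling noise, and summing them (added after seeing the data) left 1 call. Of 1401 alternatives for 132 values of single genes, 1263 kept direction and side of the threshold, 117 lost the call, 20 gained it and 1 turned sign, H3K4me3 at Zfp143 (0.039 with TMM from background windows). The looser KRAB motif was not run. Depth limits the antibodies other than H3K4me3 most.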

Other observations

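Other zinc finger families and the partners of KRAB proteins, drawn up as lists with results of these data known, were counted by the same fits. Of 42 Zbtb windows, whose proteins pair zinc fingers with a BTB domain, SUZ12 was above IgG in ESC at 5 and MTF2 at 7, and H3K4me3 was above IgG at 33 in ESC and 32 in NPC, against 5.67%, 9.1%, 36% and 38.9% of all windows. H3K27me3 was higher in NPC at 12 of 36 Zbtb windows tested and lower at 0, against 22.9% and 23.5% of all windows. H3K4me3 was higher at 10 and lower at 13 of 41 (24.4% and 31.7%), near the 26.7% and 29.2% of all windows. Of 27 Zscan and Zkscan windows, whose proteins carry a SCAN domain, 0 were above IgG for SUZ12 or MTF2 in ESC (edgeR), and H3K4me3 was higher in NPC at 14 and lower at 4 of 22 tested, with a median change of 0.35, against 26.7%, 29.2% and a median of -0.02 over all windows.

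Co-repressors and chromatin partners of KRAB proteins, among them Trim28, Setdb1 and Chd4, had 19 windows. H3K4me3 was above IgG at 17 of them in ESC and 18 in NPC, against 36% and 38.9% of all windows. It was lower in NPC at 9 and higher at 2, against 29.2% and 26.7%, with a median change of -0.21. H3K27me3 was higher at 10 of 15 tested, against 22.9% of all windows, while 0 of 19 were above IgG for it in either cell type (edgeR), as at the low Zfp windows.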
